A study of Mus musculus with 9 samples.

Results

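To describe what the DPP-4 inhibitor MK-626 did to gene expression in the hypertensive mouse aorta, the 3 arrays of the Ang II + MK-626 group were compared with the 3 arrays of the Ang II group. These are 6 of the 9 arrays of the series, and the arrays were chosen by their labels. All mice were male C57BL/6J, 8 to 10 weeks old, with no transgene or deletion named in the labels. Osmotic pumps delivered Ang II at 1 mg/kg/day in both groups, and the Ang II + MK-626 group also received MK-626 at 3 mg/kg/day over the same 2 weeks. The 3 Vehicle arrays come from mice whose pumps held PBS. They serve as a reference for levels, and they also enter the estimate of spread behind the limma p-values, which all 9 arrays share. No group received MK-626 without Ang II. The sample labels of the Ang II and Vehicle arrays describe a berberine study, while the study's methods describe MK-626. Total RNA of the aorta, freed of adhering tissue per the labels, was hybridized to Agilent 1-colour arrays with probes for lncRNAs and mRNAs. No source used here says that each array holds 1 mouse, so p-values measure the spread between these samples. The scans of the Ang II arrays are not known here, and any difference in scan or study between the Ang II and Ang II + MK-626 arrays cannot be told apart from MK-626 in any comparison below. In whole tissue, fewer cells of a type and less RNA per cell cannot be told apart.

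Ang II is the effector peptide of the renin-angiotensin system. It constricts vessels, promotes inflammation of the vessel wall and raises blood pressure. DPP-4 is a peptidase that cleaves the incretin hormone GLP-1, so an inhibitor such as MK-626 lets active GLP-1 persist in plasma. GLP-1 is best known for promoting insulin release, and GLP-1 signalling has also been linked to nitric oxide production in the endothelium, the cell layer that relaxes the vessel wall.

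The deposited values are normalized log2 intensities per probe, so that a difference of 1 is a 2-fold change, and 60834 probes other than controls were tested. The deposited table names probes and not genes. 8 mRNAs that the study followed could be placed, each on the single probe that carries its values. They are the integrin subunits Itga8 and Itgav, the integrin ligand Npnt, the calcium channel subunit Cacna1c, the cardiac muscle genes Tnni3, Mylk3 and Chrm2, and the cytokine gene Il6. Because the study chose them partly on these arrays, their direction is no independent evidence.

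To show the regulatory DNA next to genes that moved in each direction, the 250 bases before the start of 4 of them are given 5′ to 3′ on the strand of the gene, from RefSeq on GRCm38.p6. Itga8 and Itgav were higher with MK-626, and Tnni3 and Il6 were lower. The windows are chr2:12301945-12302194 on the - strand for Itga8, chr2:83724147-83724396 on the + strand for Itgav, chr7:4522529-4522778 on the - strand for Tnni3 and chr5:30012864-30013113 on the + strand for Il6. Capitals mark any match on either strand to 7 motifs. The AP-1 motif was searched for as TGAGTCA, the half-site bound by CREB-like factors (CRE half-site) as TGACG, and the binding motif of the GATA factors as AGATAA. The TATA box, where many promoters bind the general transcription machinery, was searched for as TATAAA, and the kappaB, CArG box and MEF2 motifs by their usual consensus.
Itga8: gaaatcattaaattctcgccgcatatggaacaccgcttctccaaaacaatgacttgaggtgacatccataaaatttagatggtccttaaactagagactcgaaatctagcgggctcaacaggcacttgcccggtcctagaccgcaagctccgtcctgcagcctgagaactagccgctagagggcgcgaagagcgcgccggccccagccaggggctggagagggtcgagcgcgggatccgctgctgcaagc
Itgav: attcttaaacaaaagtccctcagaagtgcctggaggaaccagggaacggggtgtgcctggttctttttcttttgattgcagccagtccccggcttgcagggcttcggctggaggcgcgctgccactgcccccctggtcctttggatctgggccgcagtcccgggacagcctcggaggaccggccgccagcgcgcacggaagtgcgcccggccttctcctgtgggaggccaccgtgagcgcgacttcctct
Tnni3: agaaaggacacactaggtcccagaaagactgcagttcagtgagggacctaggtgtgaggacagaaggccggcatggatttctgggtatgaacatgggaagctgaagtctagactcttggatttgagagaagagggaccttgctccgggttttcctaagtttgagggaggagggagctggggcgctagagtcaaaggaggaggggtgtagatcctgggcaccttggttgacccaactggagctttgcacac
Il6: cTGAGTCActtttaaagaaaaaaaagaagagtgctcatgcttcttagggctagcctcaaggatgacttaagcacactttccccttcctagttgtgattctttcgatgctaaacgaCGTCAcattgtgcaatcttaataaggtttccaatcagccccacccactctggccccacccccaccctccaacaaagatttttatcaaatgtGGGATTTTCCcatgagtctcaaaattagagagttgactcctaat
The Il6 window held 1 AP-1 match at positions -249 to -243 from the start, 1 CRE half-site at -135 to -131 and 1 kappaB match at -44 to -35, and none of these overlapped another. Among all 32851 RefSeq promoter windows of this length, 4.46% held the AP-1 letters, 17.8% the CRE half-site and 7.25% the kappaB motif. The Itga8, Itgav and Tnni3 windows held no match to any of the motifs searched, of which the GATA letters were in 9.99% of all windows, the TATA box in 12.4%, the CArG box in 1.47% and the MEF2 motif in 0.508%. A match here is a description of the letters in the window. Chrm2 also has a single start in this table, and Npnt, Cacna1c and Mylk3 have several, so their windows are not shown.

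With MK-626, Itga8, Itgav, Npnt and Cacna1c rose, and Tnni3, Mylk3, Chrm2 and Il6 fell, compared with the Ang II group. All 8 had an adjusted p under 0.05 in limma, adjusted by the Benjamini-Hochberg method across the array, where 7473 of 60834 probes (12.3%) passed at any fold. In each of the 8, the Ang II + MK-626 arrays did not overlap the Ang II arrays, which was so at 26.0% of all probes. With the plain equal-variance test only Itgav passed after adjustment, and the others had adjusted p-values of 0.0575 (Chrm2) to 0.16 (Il6). With replicate 3 as the only treated array, limma gave adjusted p-values of 0.0674 for Itga8, 0.0657 for Npnt and 0.152 for Il6, and 5 of the 8 passed. An exact permutation test of 3 against 3 arrays gave p = 0.1 for each, the smallest two-sided value this design allows.

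Integrins join the cell's cytoskeleton to the matrix around it. Itga8 encodes the alpha 8 subunit, which in the vessel wall is a gene of smooth muscle, and its log2 values were 8.74, 8.29 and 9.11 on the Ang II arrays and 10.81, 10.62 and 10.28 on the Ang II + MK-626 arrays. The lowest treated array lay 1.17 above the highest Ang II array. The difference was 1.86 (standard error 0.22, adjusted p = 0.00433 from limma), a 3.63-fold rise. Itgav encodes the alpha v subunit, a receptor for many matrix proteins, and its values went from 5.63, 5.60 and 5.86 to 7.39, 7.20 and 7.20. This was the narrowest spread among the 4 raised mRNAs, with a range of 0.20 between the treated arrays. The difference was 1.57 (standard error 0.11, adjusted p = 0.000953 from limma), or 2.96-fold. Npnt encodes nephronectin, a matrix protein that binds integrin alpha 8 beta 1, and had 6.60, 6.39 and 6.96 in the Ang II group and 8.75, 8.26 and 8.06 with MK-626. Its 3 treated arrays stood in the same order as for Itga8, with replicate 1 highest and replicate 3 lowest. The Npnt difference was 1.71 (standard error 0.23, adjusted p = 0.00615 from limma), or 3.27-fold. All 3 probes were well above background on every Ang II + MK-626 array, with processed scanner intensities of 1030 to 1700 for Itga8, 116 to 161 for Itgav and 214 to 413 for Npnt. Of 14 genes listed here as integrins and their matrix ligands, only these 3 could be named, because the study followed them. Their shared direction therefore says nothing about the list.

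Cacna1c encodes the pore of the L-type calcium channel Cav1.2, the main route of calcium entry for contraction of vascular smooth muscle. Its values were 2.35, 2.33 and 2.86 in the Ang II group and 4.15, 4.42 and 4.01 with MK-626. All 3 Ang II arrays were below 3.9, the log2 value from which most probes were well above background, and 2 of them stood at the lowest value of the array. The treated arrays lay just above that boundary, and the probe was well above background on replicates 1 and 2 but not on replicate 3. The measured difference was 1.68 (standard error 0.16, adjusted p = 0.00225 from limma). Against the boundary, however, Cacna1c was at least 1.23-fold higher with MK-626, taking the mean of all 3 treated arrays with replicate 3 at its own value. Cacna1c was the 1 gene of 10 in the list of L-type calcium channel subunits that could be named.

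Tnni3, cardiac troponin I, is the inhibitory subunit of the heart's thin filament switch and had the largest measured difference of the 8, among which the fall of Chrm2 is known only as a bound. Its values were 12.57, 12.56 and 12.90 in the Ang II group and 6.35, 8.11 and 9.23 with MK-626. Every treated array was lower than every Ang II array by at least 3.33, yet the treated arrays themselves were spread over 2.88, a 7.37-fold range, against 0.35 in the Ang II group. The difference was -4.78 (standard error 0.64, adjusted p = 0.0061 from limma), or 27.6-fold lower. It ranked 20 among the differences of all probes that were lower, some of which are dim with MK-626 and known only as bounds. Mylk3, the cardiac myosin light chain kinase, had 8.57, 8.81 and 7.69 in the Ang II group and 4.06, 5.08 and 5.63 with MK-626. Here both groups were spread, over 1.12 and 1.57, and the gap between them was 2.06. The difference was -3.43 (standard error 0.43, adjusted p = 0.00505 from limma), or 10.8-fold lower. Chrm2 encodes the M2 muscarinic receptor, which slows the heart beat, and had 7.41, 7.08 and 7.27 in the Ang II group and 2.33, 3.39 and 3.70 with MK-626. The Chrm2 probe was well above background on none of the 3 treated arrays. The measured difference was -4.11 (standard error 0.45, adjusted p = 0.00338 from limma), and against the lowest value flagged well above background on each array Chrm2 was at least 11-fold lower. Tnni3 and Mylk3 had the same order of treated arrays, with replicate 1 lowest and replicate 3 highest, and the Chrm2 values there are too dim to be ordered. The 3 genes are those that could be named of 18 markers of cardiac and striated muscle, because the study followed them. Their direction therefore says nothing about the list. All 3 were lower with MK-626 and higher on the Ang II arrays than on the Vehicle arrays. The Vehicle means were 7.64, 5.39 and 3.30. Whether heart or other striated muscle differed between the samples was not tested.

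Il6 encodes interleukin-6, a cytokine of acute inflammation. Its values were 7.85, 6.16 and 8.49 in the Ang II group and 4.83, 4.59 and 4.58 with MK-626. The spread was the reverse of that of Tnni3, with a range of 2.34 between the Ang II arrays and 0.25 between the treated arrays. Il6 was 7.13-fold lower with MK-626, a difference of -2.83 (standard error 0.54, adjusted p = 0.019 from limma), and was well above background on all 3 treated arrays at intensities of 17.8 to 27.1. Il6 was the least firm of the 8 after adjustment. The adjusted p was 0.0699 when limma was fitted to these 6 arrays alone, 0.0587 without Ang II replicate 1, 0.0659 without Ang II + MK-626 replicate 2 and 0.0521 without Ang II + MK-626 replicate 3. Il6 was the 1 gene of 12 inflammatory cytokines listed here that could be named.

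**Figure D1:**
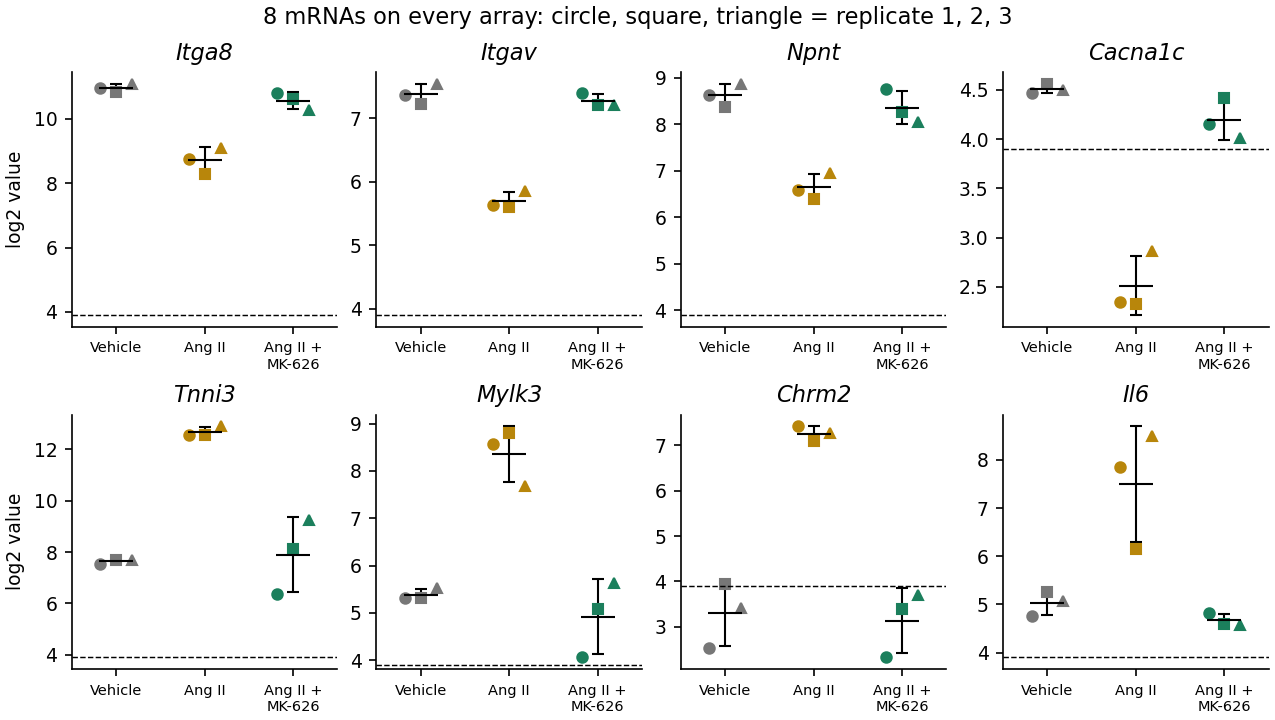
Normalized log2 value (vertical axis, not starting at 0) of 8 mRNAs on every array of the 3 groups, Vehicle on the left. Points are arrays, lines and bars are the mean and SD of 3 arrays, and the dashed line is the background boundary of 3.9. The treated arrays of Itga8, Itgav, Npnt and Cacna1c lie above the Ang II arrays and those of Tnni3, Mylk3, Chrm2 and Il6 below them, with Tnni3 spread from 6.35 to 9.23.

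Over all 60834 probes, the difference between the groups was small for most. Its median was 0.01, and the middle 90% of the probes lay between -0.79 and 0.74. With the threshold of the study, more than 2-fold and p under 0.05 before adjustment, 2524 probes (4.15%) were called in limma, 1134 of them higher (1.86%) and 1390 lower (2.28%). With the adjusted p under 0.05 in its place, 1876 (3.08%) were called, 905 (1.49%) higher and 971 (1.60%) lower. The split depended on the arrays and the normalization. With replicate 3 as the only treated array, 1918 probes were higher and 1301 lower, and with cyclic loess 973 were higher and 1552 lower. On all arrays, the probes called lower included more large differences, with dim values taken as they stand. Of those called lower, 162 (11.7%) differed by over 2 on the log2 scale and 34 by over 4. Of those called higher, 94 (8.29%) differed by over 2 and 12 by over 4. By over 3, 65 were lower and 33 higher, of which 32 and 32 were well above background on all 3 treated arrays. The compared arrays did not overlap at 1086 probes called higher (95.8%) and at 1321 called lower.

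The share called depended on the level of the probe. Among the 16091 probes with a mean of 2 to 3 over the 9 arrays, where each array holds its lowest values, 0.186% were called higher and 0.454% lower. The highest shares, 4.15% higher and 4.40% lower, were among the 5229 probes between 3 and the boundary of 3.9. Of these 5229, 3.81% were well above background on all 3 treated arrays, against 67.8% of the probes between 3.9 and 5. Above the boundary the shares higher decreased with level, from 3.39% between 3.9 and 5 to 1.04% over 11. The shares lower were 3.23% between 3.9 and 5, 2.92% between 5 and 7 and 3.74% between 7 and 9, and then 1.85% between 9 and 11 and 1.00% over 11. Between 7 and 9 there were 337 probes lower against 193 higher, the bin with the most uneven split above the boundary.

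**Figure D2:**
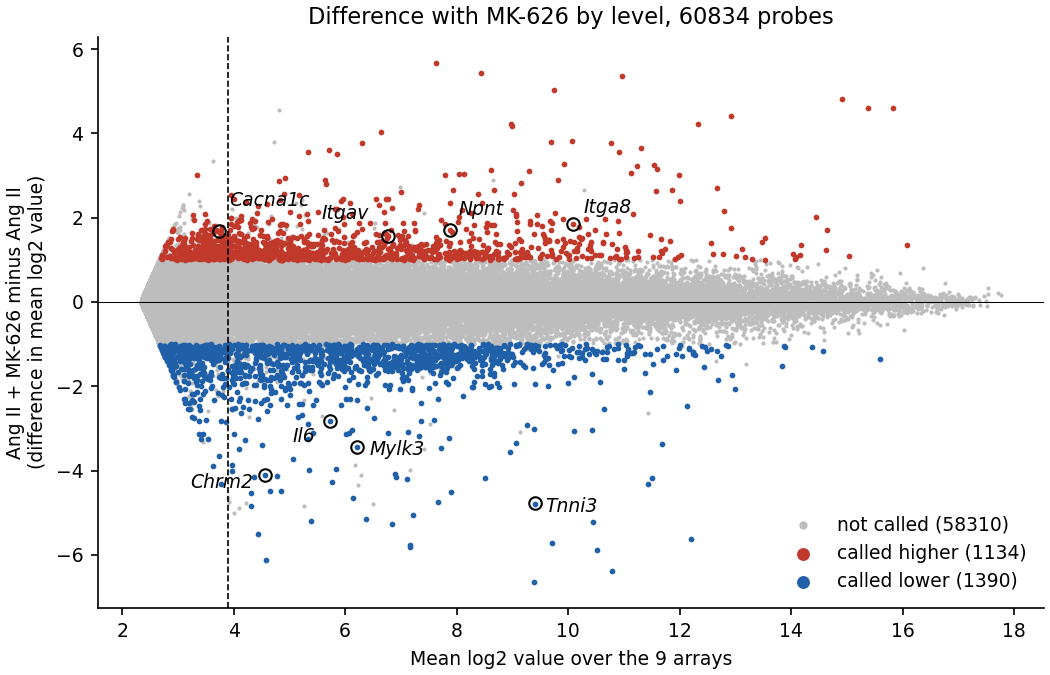
Difference in mean log2 value with MK-626 added to Ang II (vertical axis) against the mean over 9 arrays (horizontal axis), 1 point per probe. Red and blue points are the 1134 probes called higher and the 1390 called lower, grey points were not called, circles are the 8 named mRNAs and the dashed line is the background boundary of 3.9. More blue than red points lie beyond a difference of 2, and some of these blue points rest on treated values that were not well above background.

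The scanner flags on the Ang II + MK-626 arrays showed how many of these changes were measured on the treated side. A spot is flagged well above background when its signal clears the local background by the margin set in the scanner software. Of all tested probes, 40573 (66.7%), 39294 (64.6%) and 39267 (64.5%) were flagged on replicates 1, 2 and 3. Of the 1134 probes called higher, 948 (83.6%) were flagged on all 3 treated arrays and 29 (2.56%) on none. Of the 1390 called lower, 891 (64.1%) were flagged on all 3 and 334 (24.0%) on none. By the scanner's weaker flag, a signal positive and significant against background, 33 in place of 334 were flagged on none, so the counts that follow rest on the stricter flag. Over all tested probes the shares were 61.5% and 30.6%. The calls and these shares use the same treated arrays, so the shares are not independent of the calls. 0 probes were saturated, and 8 of the called probes (0.317%) had an uneven spot on at least 1 array, against 0.176% of all tested.

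The same limit applied to the Ang II group, whose flags were not analysed here and for which the boundary of 3.9 was used. All 3 Ang II arrays were below it for 322 of the probes called higher (28.4%) and for 16 of those called lower (1.15%), against 18273 of all tested (30.0%). Both groups were dim at 29 probes called higher and at all 16 of these called lower. Such probes were well above background on no treated array and below 3.9 on all 3 Ang II arrays. Another 293 probes called higher were dim in the Ang II group only, and 318 called lower were dim in the Ang II + MK-626 group only. For these the change is a bound. It reached 2-fold for 26 of the 293 and for 66 of the 318, with the largest at least 21.2-fold higher and at least 31.8-fold lower. The other bounds were under 2-fold.

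When a probe had to be flagged on all 3 treated arrays with an Ang II mean of at least 3.9, 36740 probes were left. Of these, 1587 (4.32%) were called. They were 696 (1.89%) higher and 891 (2.43%) lower, with median sizes of 1.20 and 1.30 on the log2 scale, against 1.22 and 1.31 over all called probes. Among the probes measured in both groups, as among all called on the 3 treated arrays, more were lower than higher.

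**Figure D3:**
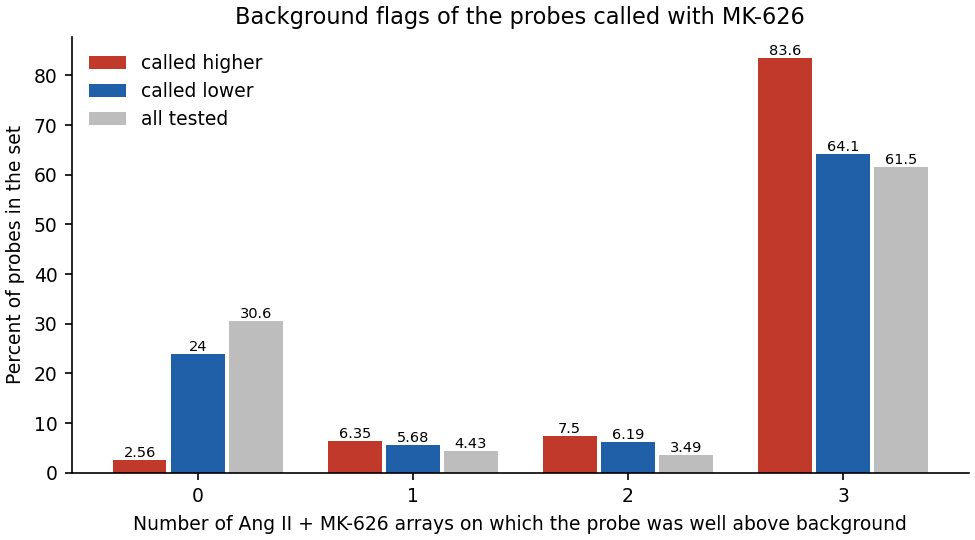
Share of probes (vertical axis, percent) by the number of Ang II + MK-626 arrays on which they were well above background (horizontal axis), for the probes called higher, those called lower and all tested. Of the probes called lower 24.0% were well above background on no treated array, against 2.56% of those called higher.

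The 3 treated arrays were not equally far from the Ang II group. Among the probes called higher, replicates 1, 2 and 3 passed 2-fold from the Ang II mean at 862 (76.0%), 948 (83.6%) and 949 (83.7%) probes. All 3 passed at 592 probes (52.2%), 2 arrays at 441 and 1 array at 101. Among the probes called lower, the counts were 1222 (87.9%), 1251 and 1003 (72.2%), with all 3 past 2-fold at 798 probes (57.4%), 2 at 490 and 1 at 102. Replicate 3 was thus the array nearest to the Ang II mean at 867 (62.4%) of the probes called lower, and replicate 1 the farthest at 817 (58.8%). The median distances of replicates 1, 2 and 3 from the Ang II mean were -1.48, -1.33 and -1.21 for the probes called lower and 1.22, 1.22 and 1.32 for those called higher. Per the file headers, replicates 1 and 2 shared a scan and replicate 3 had another, and the scans of the Ang II arrays are not known here. The part of the scan in these differences was not tested.

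Across the array, the root mean squared log2 distance was 0.427 between replicates 1 and 2, 0.443 between 2 and 3 and 0.538 between 1 and 3, so that replicate 2 lay between the others. The 3 distances within the Ang II group were 0.604, 0.598 and 0.460. The within-group SD of a probe had a median of 0.15 in the Ang II + MK-626 group and 0.17 in the Ang II group. Among the called probes it was 0.21 with MK-626 and 0.31 in the Ang II group for those called higher, and 0.29 and 0.41 for those called lower. The Ang II group was therefore the wider of the groups at called probes on both sides. Leaving out Ang II replicate 3 raised the calls to 3215, of which 2255 were shared with the calls on all arrays.

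The largest decreases differed in this. At the 65 probes lower by over 3 on the log2 scale, the median SD was 0.70 in the Ang II + MK-626 group and 0.29 in the Ang II group. Of these 65, 32 were well above background on all 3 treated arrays, and order between arrays was counted only over such probes. At 24 of the 32 (75.0%) the treated arrays stood in the order seen for Tnni3 and Mylk3, with replicate 1 lowest and replicate 3 highest, and their median SD was 0.81 against 0.26 in the Ang II group. At the 33 probes higher by over 3, the Ang II group was the wider one, with a median SD of 0.66 against 0.17 with MK-626. The order was seen at 20 of the 32 of them that were well above background on all 3 treated arrays (62.5%), where it puts replicate 3 farthest from the Ang II group, but at 302 of 857 such probes higher by 1 to 2 (35.2%). Among 823 such probes lower by 1 to 2, 442 (53.7%) had the order of replicate 1 below 2 below 3. Of 111 such probes called lower with an SD over 0.5 between the treated arrays, 91 (82.0%) had it, as did 42 of 77 called higher with such an SD (54.5%), against 828 of 1650 (50.2%) among all tested. These shares describe the 3 arrays, since probes of 1 array share its sample.

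**Figure D4:**
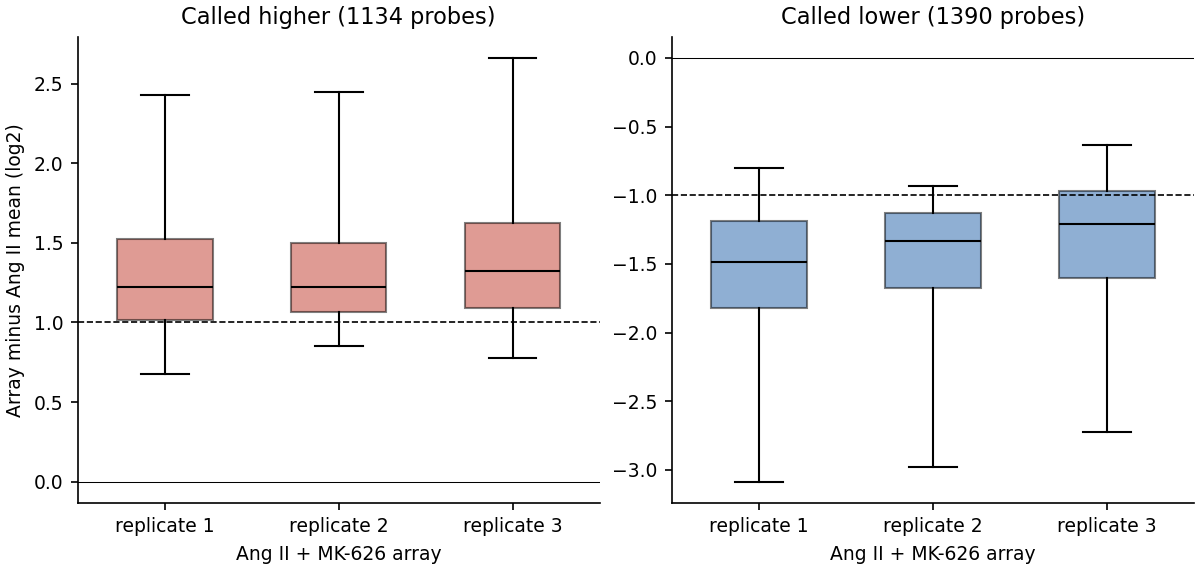
Log2 value of each Ang II + MK-626 array minus the Ang II mean (vertical axis, scales differ between panels) for the probes called higher and lower. Boxes are quartiles with the median, whiskers the 5th and 95th percentiles over probes, and the dashed lines a 2-fold change. For the probes called lower the median was -1.48 on replicate 1 and -1.21 on replicate 3.

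A few probes were chosen by a rule on size and spread, and the files do not pair them with gene names. ASMM10P036503 had the largest rise of the 625 probes that were called higher, measured in both groups, without overlap and with an adjusted p under 0.05. Its values were 4.60, 4.20 and 4.62 in the Ang II group and 9.65, 9.86 and 10.22 with MK-626. The treated arrays were tightly grouped, and the Vehicle arrays stood higher still, at 10.90, 10.93 and 10.91. The difference was 5.44 (adjusted p = 3.49e-05 from limma), or 43.4-fold. ASMM10P036997 had the largest fall of 673 such probes, from 13.58, 13.36 and 13.72 to 5.58, 8.56 and 9.34. Replicate 1 was 3.76 below replicate 3, again with replicate 2 between them. The difference was -5.73 (standard error 1.17, adjusted p = 0.0238 from limma), or 52.9-fold lower.

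The other two probes had the widest spread between the treated arrays among the called probes measured in both groups. ASMM10P056775 had 15.43, 15.50 and 15.27 in the Ang II group and 4.43, 10.78 and 11.84 with MK-626. Its treated arrays differed by 7.40, or 169-fold, and replicate 1 was near the background boundary while the others were bright. The difference of -6.38 passed the unadjusted threshold, but its adjusted p was 0.065 from limma. ASMM10P043413, the widest of the 696 probes called higher, had 5.01, 3.41 and 5.77 in the Ang II group and 5.66, 8.26 and 8.94 with MK-626. Replicate 1 lay below the highest Ang II array, so the groups overlapped. The difference of 2.89 had an adjusted p of 0.0957 from limma.

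Probe names gave a further division, by the text they start with. Most probes, 58045, start with ASMM10P, and 1087 of these (1.87%) were higher and 1340 (2.31%) lower with MK-626. A further 923 start with ASMM10UP, a prefix whose meaning is not given in the sources used here. Of these 37 (4.01%) were higher and 16 (1.73%) lower. Among the 285 of them that were measured in both groups 19 were higher and 5 lower, 8.42% in all, against 4.28% of the measured ASMM10P probes. No test of this difference was made, since probes of 1 array are not replicates.

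Names that start with humanlincRNA, mouselincRNA or MM9LINCRNAEXON read as long intergenic noncoding RNAs, transcripts that lie between protein-coding genes, and 1836 probes have them. 9 of these (0.490%) were called higher and 34 (1.85%) lower, both below the shares of all probes, 1.86% and 2.28%. Among the 404 measured in both groups, 4 (0.990%) were higher and 15 (3.71%) lower, so the share lower was then above that of all measured probes, 2.43%, and the share higher below it, 1.89%. Of the 1104 humanlincRNA probes, 761 were well above background on no treated array, 1 was called higher and 19 lower (0.0906% and 1.72%). Of the 234 measured in both groups, 1 was higher and 10 lower. Of the 649 mouselincRNA probes, 6 (0.924%) were higher and 15 (2.31%) lower, and of the 141 measured in both groups 3 were higher and 5 lower. Of the 83 MM9LINCRNAEXON probes, 2 were higher and 0 lower, and neither of the 2 was flagged on all 3 treated arrays.

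The names also carry a + or - sign, taken here as the strand of the transcript, and 876 lincRNA regions had a probe for each. 42 of the called lincRNA probes had a partner of the other sign, and that partner was well above background on no treated array in 27 cases and on all 3 in 14. In 37 of the 42 (88.1%) the partner differed by less than 0.5 on the log2 scale, which is near the share of all lincRNA probes (84.7%) and of all tested (79.0%).

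A few of the lincRNA probes are named here, chosen after their values were seen. humanlincRNA0065, the single humanlincRNA probe called higher, had 8.88, 8.89 and 8.77 in the Ang II group and 12.29, 11.96 and 12.06 with MK-626. Both groups were tight and far apart, and the Vehicle arrays were higher again at 13.64, 13.78 and 13.67. Its difference was 3.26 (standard error 0.09, adjusted p = 2.66e-05 from limma), or 9.55-fold. mouselincRNA1124 had the largest rise of its class, from 3.54, 4.24 and 5.14 to 6.24, 6.80 and 6.48. Ang II replicate 3 was the nearest to the treated arrays, and the difference was 2.20 (adjusted p = 0.014 from limma). humanlincRNA2099 had the largest fall among the measured humanlincRNA probes, from 6.88, 7.16 and 6.80 to 4.78, 4.65 and 5.63. Replicate 3 was again the treated array closest to the Ang II group, and the difference was -1.92 (adjusted p = 0.0184 from limma).

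The called probes MM9LINCRNAEXON11593 and MM9LINCRNAEXON11661 were near background in both infused groups. The first had 2.35, 2.33 and 3.22 in the Ang II group and 3.91, 3.57 and 3.91 with MK-626. The second had 2.35, 2.74 and 3.06 and then 3.61, 3.62 and 4.12, while its 3 Vehicle arrays were all above the boundary, with a mean of 4.77. The first was well above background on 2 of the 3 treated arrays and the second on 1, all their Ang II arrays were below 3.9, and neither treated mean exceeded 3.9, so no fold is given for them. The 15 probes named MM9NEGATIVE, which read as negative controls, were well above background on no treated array, and 0 of them were called. Their medians lay between 2.34 and 2.86 on the Ang II arrays and between 2.48 and 2.84 on the Ang II + MK-626 arrays.

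**Figure D5:**
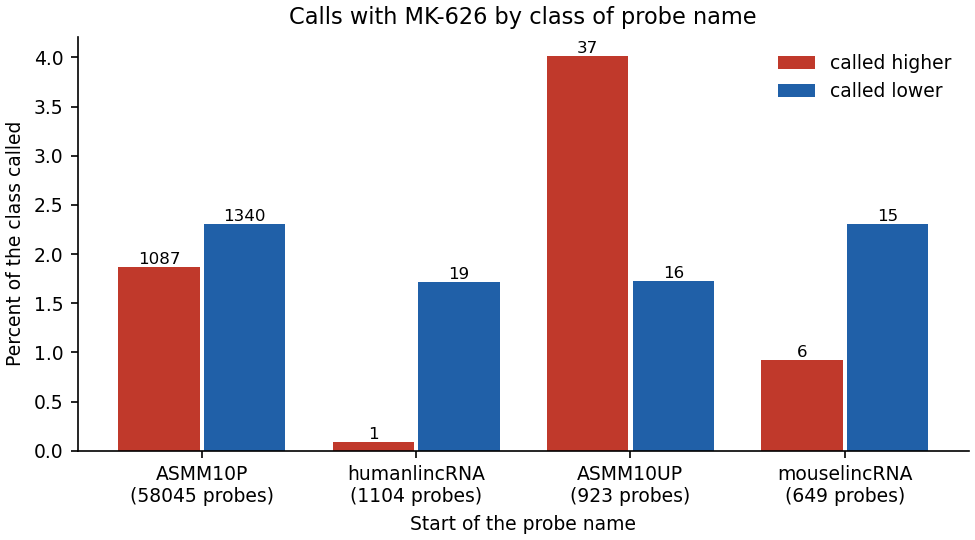
Share of probes called higher and lower with MK-626 (vertical axis, percent of the class) for the 4 largest classes of probe name (horizontal axis), with the number of called probes over each bar. ASMM10UP probes were called higher more often than lower, 37 against 16, and humanlincRNA probes lower more often than higher, 19 against 1.

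For reference, the differences of both infused groups from Vehicle are set side by side for the mRNAs other than Chrm2, whose Vehicle and Ang II + MK-626 means were both below 3.9. The comparisons share arrays with each other and with the comparison of the infused groups, so nothing is read from their likeness. Ang II minus Vehicle was -2.25 for Itga8, -1.68 for Itgav, -1.98 for Npnt and -2.0 for Cacna1c, while Ang II + MK-626 minus Vehicle was -0.39, -0.11, -0.27 and -0.31. The Cacna1c value of -2.0 is taken against dim Ang II values and is not a measured size. For Tnni3, Mylk3 and Il6 the values were 5.04, 2.97 and 2.47, and then 0.25, -0.46 and -0.36. None of these 7 passed an adjusted p of 0.05 in limma when the treated arrays were set against Vehicle, with values from 0.276 to 0.821, which does not show that the levels were the same. At humanlincRNA0065 the Ang II + MK-626 mean minus the Vehicle mean was -1.59 (adjusted p = 0.000398 from limma).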

How the data were processed

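Aortic RNA was hybridized to 9 arrays, 3 in each of the Ang II + MK-626, Ang II and Vehicle groups. The authors extracted spot intensity with Agilent Feature Extraction 11.0.1.1, normalized the arrays by quantiles in GeneSpring GX and deposited log2 values of 60902 probes, without gene names. The deposited scanner files gave the intensity and background flags of the 3 Ang II + MK-626 arrays. Those of the Ang II and Vehicle arrays were not analysed here. Quantile normalization sets every array to a common distribution, so a shift of all probes cannot be seen.

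68 control probes were left out. limma 3.58.1 (R 4.3.3; lmFit, eBayes) fitted 1 mean per group to all 9 arrays, and p-values were adjusted by the Benjamini-Hochberg method over 60834 probes. Calls required more than a 2-fold change and p under 0.05 before adjustment. The methods of the study name an analysis of variance over its groups, which was run as an alternative. For the background boundary, log2 values were binned by 0.1, and the first bin with at least 50% of its probes flagged was taken, which gave 3.9 as the mean of 3 arrays. For bounds, each value of a group dim on all its arrays was the higher of itself and a floor, the lowest flagged value of its array (3.66, 3.86 or 3.84) for Ang II + MK-626 or 3.9 for Ang II, and the other group kept its mean over all 3 arrays. Precision is limited by 3 arrays per group and by signal over background.

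The text names the 8 mRNAs of the study and, since no table pairs probes with genes, 2 probes per direction: the largest change among called probes measured in both groups without overlap and with an adjusted p under 0.05, and the widest SD between treated arrays among called, measured probes. Each of the 8 was placed on the probe whose 9 deposited values equal those listed for that mRNA in the study's supplement within 4e-06, where the next probe differed by at least 0.289, and all 8 symbols were checked in RefSeq. Gene lists for contractile smooth muscle, endothelium, macrophage and T cell, fibroblast and collagen, adipocyte, red blood cell, incretin pathway, nitric oxide and cGMP, and renin-angiotensin system had 0 members that could be named, so the aorta label was not checked against its markers. Members and lists were chosen with earlier results of these data known. The fit was checked on simulated data. Alternatives were calls by adjusted p, the analysis of variance, a plain equal-variance test, limma with a mean-variance trend or on the 2 groups alone, array weights, a replicate block, cyclic loess, filters on dim probes, each array left out and, chosen after seeing the data, replicate 3 as the only treated array. The labels name no extraction or hybridization batch. Tables used Python 3.11.15 (pandas 2.3.3, numpy 2.4.6, scipy 1.17.1) and plots matplotlib 3.10.9.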

Additional observations from a re-analysis of the deposited data

How the results depend on the processing

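No alternative called any probe in the opposite direction, which a change of test alone could not do. The count of 2524 called probes lay between 2174 and 3000 under the settings that kept all probes and arrays, apart from 1876 with the adjusted p. It was 2049 without dim probes, and 1635 (715 higher, 920 lower) when only probes measured in both groups were fitted, where fewer probes are tested. Cyclic loess gave 973 higher and 1552 lower. With single arrays left out, the calls ranged from 2423 to 3215, those higher from 999 to 1543 and those lower from 1318 to 1672. With replicate 3 as the only treated array, assumed to vary like the other groups, 3219 probes were called, of which 1918 were higher and 1301 lower, and 1554 were shared with the calls on all arrays; the cause was not tested.

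All 8 mRNAs kept their direction in the 17 alternatives fitted to all probes, but in most of these it could not have changed. A change of test leaves the mean difference as it was. Leaving out arrays cannot reverse it where the groups do not overlap. The number with an adjusted p under 0.05 was 7 to 8 with single arrays left out, 5 with replicate 3 alone and 1 (Itgav) with the plain equal-variance test, which has fewer degrees of freedom per probe. Il6 had an adjusted p over 0.05 in 6 of 17 settings, within a range of 0.00179 to 0.16. Of the probes called lower, 334 were well above background on no treated array, but 33 by the weaker flag of a signal significantly above background. With the boundary at 4.03, where 90% of probes are flagged, 356 in place of 322 probes called higher were dim on all Ang II arrays. The mean distance between the treated arrays was 0.47 over all probes and 0.407 without dim probes, by construction of the filter.

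No pairing by replicate number was seen: the deviations of Ang II and Ang II + MK-626 arrays with the same number correlated at -0.07, 0.04 and -0.03. With 3 arrays per group, this cannot show that the samples were unpaired. With the replicate block, 2477 probes were called (1125 higher, 1352 lower), of which 2445 were shared with the calls without it. 3 arrays per group and the signal near background limit what can be seen, and no gene names were available here for most probes.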
